A study of Mus musculus with 20 samples.

Results

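Control adipocytes carrying a scrambled shRNA were compared with control adipocytes carrying an empty vector, in the arm of the study that concerns the forkhead transcription factor Foxk2. The comparison rests on 4 of the 20 RNA-seq libraries, chosen by their labels and by no measured value: 2 knockdown controls (scrambled shRNA control) and 2 overexpression controls (empty vector control). Neither side carries a Foxk manipulation. All are 3T3-L1 adipocytes, a line derived from Swiss mouse embryo that is grown as preadipocytes and differentiated into fat cells in culture. The labels describe a cocktail of insulin (5 µg/ml), dexamethasone (1 µM), troglitazone (10 µM) and the phosphodiesterase inhibitor isobutyl methylxanthine (0.5 mM); from day 4 insulin alone was kept, and from day 6 cells were in growth medium. Those 2 pairs of libraries are the baselines of 2 Foxk2 overexpression and 2 Foxk2 knockdown (Foxk2 shRNA) libraries. The same 2 kinds of control were also sequenced beside Foxk1, with 3 overexpression controls and 3 knockdown controls. The labels do not give the vector, the way it was delivered, the day of harvest or the origin of the replicates. The p-values below therefore measure the spread between libraries, which may be technical, and the construct cannot be told apart from anything else that differed between the 2 pairs.

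A scrambled shRNA is a hairpin RNA that the RNA interference machinery can process but that has no intended target, whereas an empty vector produces no hairpin. When 3T3-L1 preadipocytes differentiate, they shut down much of a fibroblast programme of collagens, matrix proteases and actin stress fibres. They switch on the enzymes of lipid synthesis, fat storage and mitochondrial oxidation under the control of Pparg and the C/EBP factors. Differentiation in a dish is rarely complete, and a bulk library mixes fat cells with cells that stayed fibroblast-like. Fewer cells of a type and less RNA per cell cannot be told apart in such libraries.

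Depth was 32100965 to 36157008 reads assigned to genes in the 4 libraries. In a principal component analysis of all 10 control libraries, the leading axis separated the Foxk2 set from the Foxk1 set (88.7% of variance). Among the 4 libraries compared, it separated the knockdown controls from the overexpression controls (62.0%). Foxk2 stood at 13.1 and 12.7 RPKM (reads scaled to gene length and to library size) in the knockdown controls and at 13.4 and 13.3 RPKM in the overexpression controls. The log2 difference was -0.05 ± 0.05 (SE, limma adjusted p = 0.622). For its paralogue Foxk1 the values were 10.7 and 9.79 against 11.6 and 11.6 RPKM (-0.17 ± 0.07, limma adjusted p = 0.0916). Foxk1 was called with median-ratio scaling (limma adjusted p = 0.0432), without mitochondrial genes (0.0330) and with voom on recovered reads (0.0170). The fat cell label matched the data. Adipoq, which encodes adiponectin, averaged 1870 and 1631 RPKM in the knockdown and overexpression controls, and Fabp4, the adipocyte fatty acid carrier, 1520 and 1392 RPKM. Some defining genes of macrophages, endothelium, muscle and epithelium were at 0 in all 4 libraries; they are named with the lists of those cells.

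Between the 2 kinds of control, 3024 of 15981 genes tested differed (18.9%, limma adjusted p under 0.05): 1737 were higher in the knockdown controls (10.9%) and 1287 lower (8.05%). Among the gene lists examined, cholesterol synthesis, fat synthesis, fatty acid oxidation, the TCA cycle and thermogenic genes had most of their tested members called higher. Fibroblast markers, collagens, contractile genes and mitochondrially encoded mRNAs had most called lower. None of the 13 mitochondrially encoded mRNAs was called in a model of the Foxk2 set alone or in a model of the 4 libraries alone. Most differences were small. The median size among called genes was 0.30 on the log2 scale, and 31 genes were higher and 21 lower by 2-fold or more. Against this stood a median SD between replicates of 0.0391 log2 units in the knockdown controls and 0.0529 in the overexpression controls. The median difference over all genes was 0.01. Both knockdown controls lay on the same side of both overexpression controls for 60.2% of genes, so that separation alone is common. The split into higher and lower calls depended on the scaling: it was 1393 higher and 1605 lower with median-ratio scaling, and 1238 higher and 1710 lower without mitochondrial genes. In a model of the 4 libraries alone 1359 genes were called, 677 higher and 682 lower. List counts from that model, given below, are to be read beside these. Each of the 4 libraries mattered to the count of 3024. It was 1978 without replicate 1 and 1524 without replicate 2 of the knockdown controls, and 1925 and 1980 without replicates 1 and 2 of the overexpression controls.

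**Figure D1:**
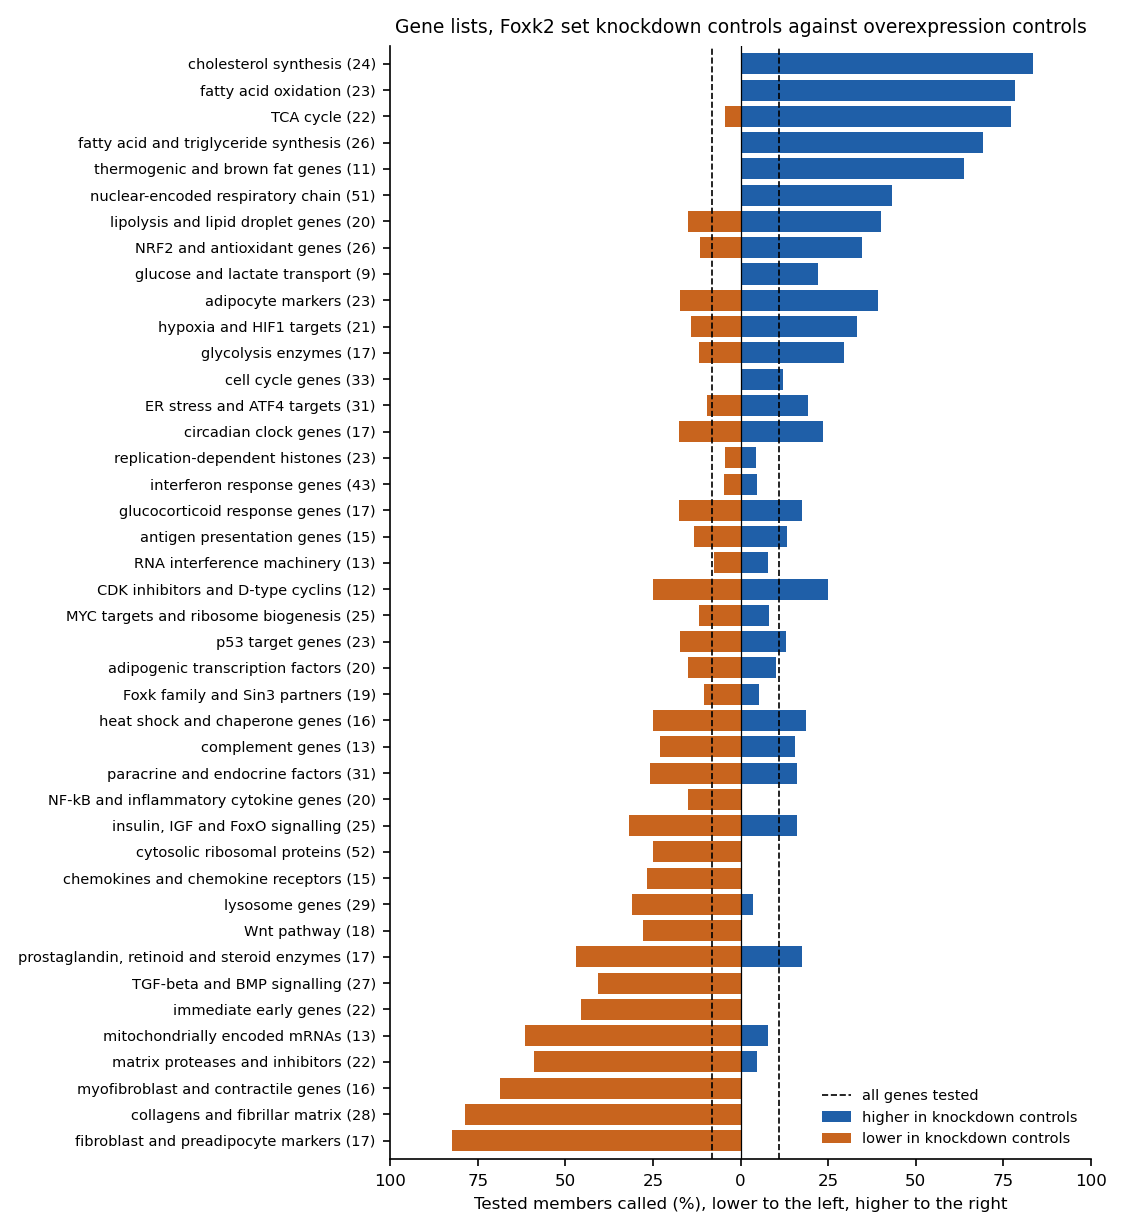
Share of the tested members of each plotted gene list (number in brackets) that were called lower (left, orange) or higher (right, blue) in the knockdown controls, in percent; dashed lines mark the shares over all genes tested, 8.05% and 10.9%. Cholesterol synthesis reaches the highest share on the right and the fibroblast and preadipocyte markers the highest on the left.

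The largest differences lay in the mitochondrial genome. This small circle encodes 13 subunits of the respiratory chain and its own ribosomal and transfer RNAs, and is transcribed as long precursors that are cut into single RNAs. A run of 9 neighbouring genes from mt-Co2 to mt-Nd4l (positions 7013 to 10173) was far lower in the knockdown controls. mt-Atp6, a subunit of ATP synthase (positions 7927 to 8607), stood at 736 and 98.6 RPKM in knockdown control replicates 1 and 2 and at 10637 and 9950 RPKM in the overexpression controls. The groups were far apart, yet the 2 knockdown controls also differed several-fold from each other. The log2 difference was -5.25 ± 0.86 (limma adjusted p = 0.000543). It was -6.70 without knockdown control replicate 1 and -3.80 without replicate 2. mt-Co2, a subunit of cytochrome c oxidase, gave 737 and 113 against 11312 and 10333 RPKM (-5.22 ± 0.82, limma adjusted p = 0.000383). mt-Nd3, a subunit of complex I, gave 61.0 and 7.51 against 1014 and 942 RPKM (-5.46 ± 0.91, limma adjusted p = 0.000646). The run as a whole held 0.150% and 0.0215% of reads in the knockdown controls and 2.21% and 2.06% in the overexpression controls. All 9 were called lower, and mt-Tr, with -2.98 on the log2 scale, had the smallest difference. The calls of mt-Atp6, mt-Co2 and mt-Nd3 were lost in a model of the Foxk2 set alone (limma adjusted p = 0.0557, 0.0552 and 0.0578) and in a model of the 4 libraries alone (0.0997, 0.0917 and 0.0961).

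Genes on either side of the run differed less. mt-Nd1 and mt-Nd2 before it and mt-Nd5 and mt-Nd6 after it were not called, with log2 differences of -0.05, 0.10, 0.10 and 0.18. Under quantile normalization mt-Nd1 and mt-Nd2 were called higher (0.98 and 0.64), and the call of mt-Nd4 was lost (-0.12). mt-Co1, the last protein-coding gene before the run, stood at 6822 and 6421 against 12288 and 10802 RPKM (-0.80, limma adjusted p = 0.00139). Its call was lost in a model of the Foxk2 set alone (limma adjusted p = 0.381), in a model of the 4 libraries alone (0.473) and with no filter on low values (0.188). mt-Nd4, which follows it, had a log2 difference of -0.69 (limma adjusted p = 0.00625), and mt-Cytb, of complex III, was higher by 0.26 (limma adjusted p = 0.0250). The mt-Nd4 call was lost without knockdown control replicate 2 (0.0570), without overexpression control replicate 1 (0.0568), in the model of the Foxk2 set alone (0.167) and in that of the 4 libraries alone (0.122). The mt-Cytb call was lost without either knockdown control replicate (0.103 and 0.122) or without overexpression control replicate 2 (0.234). Of 37 mitochondrial genes 36 were tested, 12 were lower and 2, mt-Cytb and mt-Tn, higher. The transfer RNA gene mt-Tn stood at 1.24 and 1.27 against 0.390 and 0.878 RPKM, a low level, and its call was lost without either knockdown control replicate (limma adjusted p = 0.0816 and 0.109), without overexpression control replicate 1 (0.272), in the models of the Foxk2 set alone (0.123), of the 4 libraries alone (0.212) and of the 10 control libraries (0.0595), and with voom (0.659).

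The 5 protein-coding genes of the run other than mt-Atp8 have near-identical copies on chromosome 1 (24612407 to 24615565, mm10), which cover nearly all of each (99.6% of mt-Atp6 and mt-Co2, 99.1% of mt-Nd3). Copies next to these cover 31.3% of mt-Co1 and 63.6% of mt-Nd4. Reads from such copies may be hard to assign, and how multiply aligned reads were treated is not given in the sources used here. Gm10925, the copy of mt-Atp6, stood at 21.5 and 20.9 RPKM in the knockdown controls and at 11.9 and 25.4 RPKM in the overexpression controls. Its groups overlapped. In the 12 Foxk1 libraries the same copy stood at 273 to 490 RPKM. Across the remaining libraries the share of reads on the run was uneven as well: 2.26% and 0.305% in Foxk2 overexpression, 1.00% and 2.23% in Foxk2 knockdown, and 0.109 to 0.228% in the Foxk1 libraries. Low shares were found in Foxk2 overexpression replicate 2 and in the Foxk1 libraries. The replicates of both manipulated groups of the Foxk2 set lay apart. What this unevenness contributed to the difference was not tested.

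**Figure D2:**
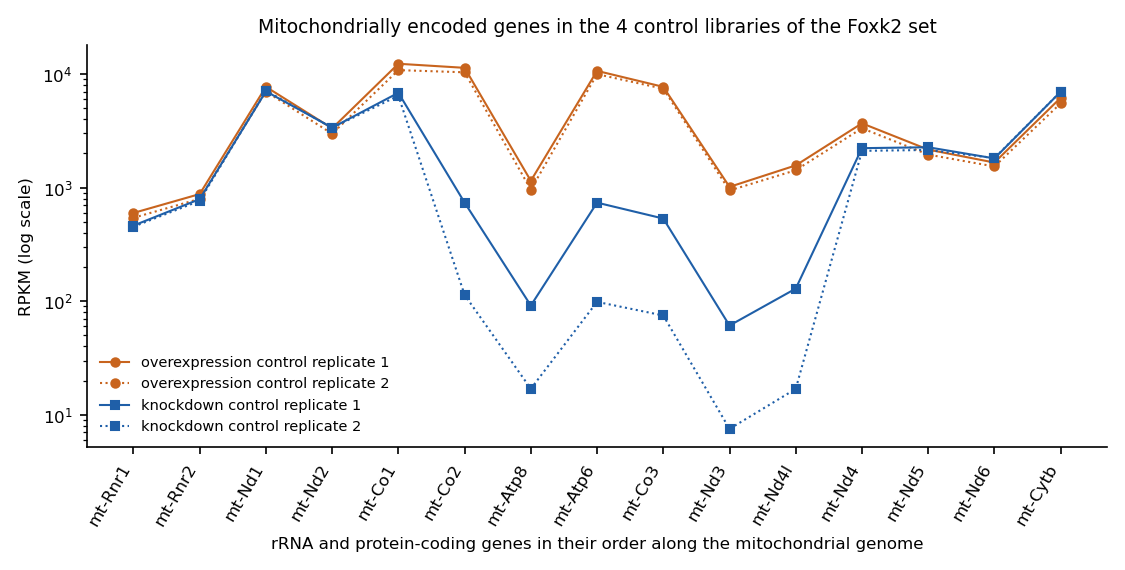
RPKM (log scale) of the ribosomal RNA and protein-coding genes of the mitochondrial genome, in genome order, in the 2 overexpression controls (orange circles) and the 2 knockdown controls (blue squares; replicate 1 solid, replicate 2 dotted). The lines part from mt-Co2 to mt-Nd4l, where mt-Atp6 is 736 and 98.6 RPKM in the knockdown controls against 10637 and 9950, and lie closer together on either side.

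Fibroblast and preadipocyte markers were lower in the knockdown controls. Of 17 tested, 14 were lower and none higher, with a median log2 difference of -0.53 against 0.01 over all genes. Their summed level was 457 to 461 RPKM in the knockdown controls and 712 to 722 RPKM in the overexpression controls. Vim, the intermediate filament protein of mesenchymal cells, stood at 247 and 242 against 386 and 394 RPKM (-0.67 ± 0.05, limma adjusted p = 1.16e-06). Dcn encodes decorin, a proteoglycan that decorates collagen fibrils; it stood at 42.9 and 41.9 against 70.1 and 69.4 RPKM (-0.71 ± 0.09, limma adjusted p = 5.17e-05). Prrx1, a transcription factor of limb and connective tissue mesenchyme, was at 5.58 and 5.96 against 9.05 and 8.84 RPKM (-0.59 ± 0.06, limma adjusted p = 8.88e-06). For each of them the replicates lay close together and the groups did not overlap, as was the case for 60.2% of all genes. Without overexpression control replicate 2 the list had 9 members called lower.

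Genes of the matrix followed the same direction. Of 28 collagen and fibrillar matrix genes, 22 were lower and none higher (median -0.31), and 14 were lower in a model of the 4 libraries alone. Col1a2, 1 chain of type I collagen, the main fibre of connective tissue, stood at 79.9 and 81.5 against 119 and 123 RPKM (-0.58 ± 0.06, limma adjusted p = 2.07e-05). Lox, which cross-links collagen, was at 53.3 and 52.8 against 91.9 and 87.0 RPKM (-0.75 ± 0.06, limma adjusted p = 1.35e-06). Postn (periostin) and Sparc, proteins that bind collagen, were lower, with log2 differences of -0.71 and -0.41. Among matrix proteases and their inhibitors, 13 of 22 were lower (median -0.39) and 1, Mmp19, higher. Mmp2, a gelatinase, stood at 58.3 and 55.7 against 101 and 104 RPKM (-0.84 ± 0.06, limma adjusted p = 1.35e-06). Its inhibitor Timp2 was lower as well, at 45.0 and 43.9 against 74.4 and 74.3 RPKM, and the aggrecan-cleaving proteases Adamts1 and Adamts5 were lower, with log2 differences of -0.92 and -0.56. Without overexpression control replicate 1 the protease list had 8 members called lower, and the Mmp19 call was lost (limma adjusted p = 0.0635), as it was without knockdown control replicate 2 (0.0855).

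Contractile genes were lower too, at 11 of 16 with none higher (median -0.51). Acta2, the smooth muscle actin of myofibroblasts, stood at 8.36 and 8.01 against 17.8 and 19.0 RPKM (-1.12 ± 0.11, limma adjusted p = 1.13e-05). Cald1 and Flna, which bind and cross-link actin filaments, were lower, with log2 differences of -0.55 and -0.56. The largest falls outside the mitochondrial genome were read next, an extension of the naming rule made after the values were seen. Thbs1 (chromosome 2, 118111876 to 118127133, mm10) encodes thrombospondin 1, a matrix glycoprotein that activates latent TGF-beta. It stood at 20.8 and 19.7 RPKM in the knockdown controls and at 62.5 and 63.7 RPKM in the overexpression controls (-1.62 ± 0.10, limma adjusted p = 2.00e-07). That is 20.3 ± 0.79 against 63.1 ± 0.82 RPKM (SD, n = 2 and 2), a fold of 3.11 between means. Ccdc80 (chromosome 16, 45093402 to 45128077), a secreted protein of the matrix, stood at 212 and 208 against 589 and 575 RPKM (-1.47 ± 0.08, limma adjusted p = 9.95e-08). Maoa, the mitochondrial amine oxidase, Orm2, an acute phase glycoprotein, and Flnc, an actin cross-linker, were lower, with log2 differences of -1.15, -1.06 and -0.98. Gsta1, a glutathione transferase, was lower (log2 difference -1.21), but near-identical sequence covers 99.9% of its transcript, so its reads are uncertain.

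The TGF-beta and BMP, Wnt, immediate early and chemokine lists are set together here, and none had a member called higher. Not every signalling list was like this: the insulin, IGF and FoxO list, given below, had 4 higher and 8 lower. In the TGF-beta and BMP list 11 of 27 were lower and none higher (median -0.24). Id3, an inhibitor of helix-loop-helix factors and a BMP target, was at 13.4 and 13.0 against 22.6 and 24.2 RPKM (-0.80 ± 0.08, limma adjusted p = 1.32e-05). Ltbp1, which anchors latent TGF-beta in the matrix, and Fst (follistatin), which binds activins, were lower, with log2 differences of -0.65 and -0.56. In the Wnt list 5 of 18 were lower and none higher: Sfrp2, Ccnd1, Fzd7, Fzd1 and Lrp5. Of these, 2 were called when any 1 of the 4 control libraries was left out. Near-identical sequence covers 29.5% of the Ccnd1 transcript. Immediate early genes, which respond within minutes to serum and stress, were lower in 10 of 22 cases with none higher (median -0.27). Jun was at 13.4 and 12.6 against 19.2 and 19.4 RPKM (-0.55 ± 0.10, limma adjusted p = 0.00118) and the phosphatase Dusp1 at 11.4 and 11.1 against 17.5 and 18.1 RPKM (-0.63 ± 0.10, limma adjusted p = 0.000325). This list had 5 members called lower without knockdown control replicate 2, 5 without overexpression control replicate 1 and 6 without replicate 2. Among chemokines 4 of 15 were lower and none higher: Ccl2, Ccl6, Cxcl12 and Cx3cl1. Ccl2, which attracts monocytes, was at 3.48 and 3.38 against 6.85 and 6.43 RPKM (-0.86 ± 0.12, limma adjusted p = 0.000119).

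**Figure D3:**
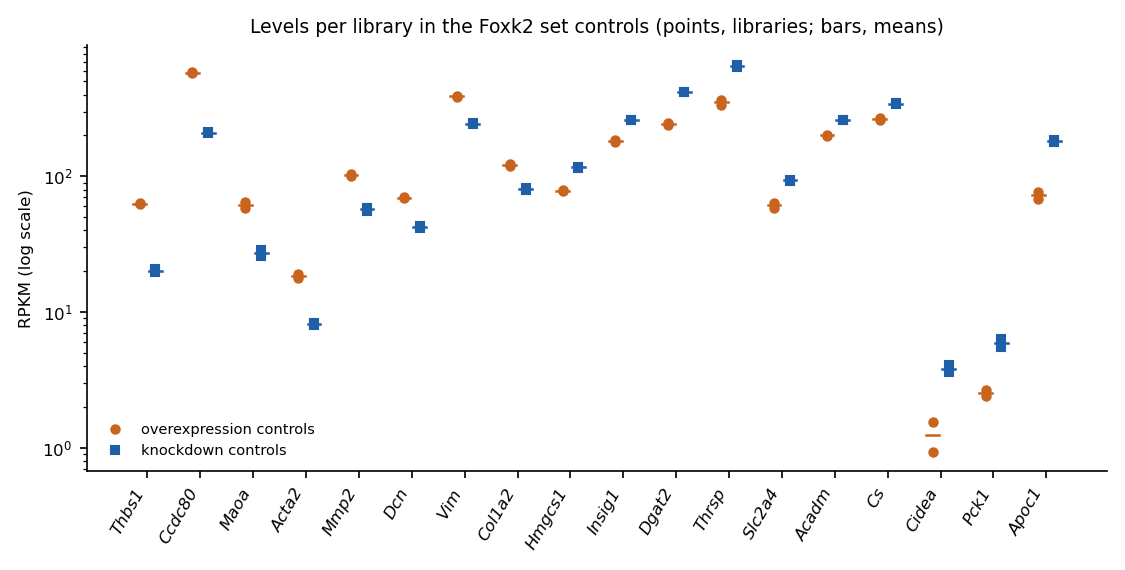
RPKM (log scale) of 18 genes in the 2 overexpression controls (orange circles) and the 2 knockdown controls (blue squares); horizontal bars are means. From Thbs1 to Col1a2 the knockdown controls lie below the overexpression controls and from Hmgcs1 to Apoc1 above them. The genes shown were picked among called genes, so their separation follows from the choice. Over all genes tested the groups lay apart for 60.2%.

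Cholesterol synthesis was higher almost throughout. Of 24 genes tested, 20 were higher in the knockdown controls and none lower, with a median log2 difference of 0.42. Cells make cholesterol from acetyl-CoA through the mevalonate pathway, and most of its enzymes are switched on together by the transcription factor SREBP2 when sterols are scarce. Hmgcs1, which makes the precursor of mevalonate (chromosome 13, 119690379 to 119708260, mm10), stood at 116 and 117 RPKM in the knockdown controls and at 77.5 and 79.5 RPKM in the overexpression controls (0.57 ± 0.06, limma adjusted p = 1.96e-05). The means were 117 ± 0.93 and 78.5 ± 1.38 RPKM (SD, n = 2 and 2), a fold of 1.49. Insig1, the sterol-regulated brake on SREBP processing, stood at 258 and 261 against 178 and 185 RPKM (0.51 ± 0.06, limma adjusted p = 6.29e-05). Acat2, which condenses acetyl-CoA at the head of the pathway, was at 80.7 and 82.3 against 61.5 and 64.1 RPKM (0.37 ± 0.05, limma adjusted p = 6.23e-05). Mvk, Mvd and Srebf2 were among the members not called, and are named after their values were seen. Mvk was called in 5 alternatives, Mvd in 2 and Srebf2 in 1, all higher. In the model of the 4 libraries alone, 9 of the 24 were called.

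The promoters of its members were read for the sterol regulatory element, the DNA motif that SREBP factors bind, as the letters TCACNCCAC on either strand. The RefSeq windows (GRCm38.p6, 250 bases before to 50 after each start) covered 14 of the 20 genes that were higher, in 17 windows. The letters were found in 1 of the 17 windows (5.88%), that of Hmgcs1, and in 1.24% of all 32851 windows. The 250 bases before the start of Hmgcs1 (chr13:119690101-119690350, plus strand), with the match in capitals beginning 137 bases before the start, are shown beside those of Insig1 (chr5:28071162-28071411, plus strand), where the letters were not found.
Hmgcs1: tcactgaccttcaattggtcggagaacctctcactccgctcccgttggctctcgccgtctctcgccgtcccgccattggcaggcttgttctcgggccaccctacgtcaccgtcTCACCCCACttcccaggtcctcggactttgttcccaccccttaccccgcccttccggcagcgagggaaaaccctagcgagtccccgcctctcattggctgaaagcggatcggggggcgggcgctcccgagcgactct
Insig1: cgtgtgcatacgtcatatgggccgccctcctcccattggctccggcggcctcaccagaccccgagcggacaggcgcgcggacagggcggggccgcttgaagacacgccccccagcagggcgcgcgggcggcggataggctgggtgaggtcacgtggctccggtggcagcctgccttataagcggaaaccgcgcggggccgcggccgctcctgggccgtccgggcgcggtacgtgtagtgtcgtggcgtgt
A match describes the letters in the window and is no evidence of binding, and their absence says nothing of the factor.

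Fatty acid and triglyceride synthesis was higher as well, in 18 of 26 genes with none lower (median 0.36). In a model of the 4 libraries alone 9 of the 26 were higher, beside 677 of 15981 over all genes. Dgat2, which adds the last fatty acid to make triglyceride (chromosome 7, 99153658 to 99182719), stood at 417 and 418 against 240 and 249 RPKM (0.77 ± 0.06, limma adjusted p = 1.42e-06), a fold of 1.71 between means. Thrsp (Spot 14), a lipogenic protein of fat and liver, was at 643 and 663 against 335 and 365 RPKM (0.90 ± 0.07, limma adjusted p = 1.30e-06). Elovl5, which lengthens fatty acids, was at 52.2 and 51.4 against 35.1 and 36.3 RPKM (0.53 ± 0.05, limma adjusted p = 2.82e-06). The replicates of each group lay within a few percent of each other for Dgat2 and Elovl5. In the lipolysis and lipid droplet list, 8 of 20 were higher and 3 lower (median 0.10). Pnpla3, a lipogenic droplet protein, and Pde3b, through which insulin restrains lipolysis, were higher by 0.94 and 0.55. Lipe, the hormone-sensitive lipase, was lower (log2 difference -0.24), at 243 and 242 against 285 and 287 RPKM (limma adjusted p = 0.000925); the other 2 were the droplet coats Plin3 and Plin4. With median-ratio scaling, or without mitochondrial genes, 5 members were lower.

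Genes that burn fat were higher beside those that make it. Of 23 fatty acid oxidation genes, 18 were higher and none lower (median 0.25), and 11 were higher in the model of the 4 libraries alone. Acadm, the medium-chain dehydrogenase of beta-oxidation, stood at 260 and 260 against 202 and 199 RPKM (0.38 ± 0.04, limma adjusted p = 2.01e-05), and Echs1, the enoyl-CoA hydratase, at 39.3 and 39.7 against 27.7 and 29.8 RPKM (0.45 ± 0.05, limma adjusted p = 1.13e-05). The peroxisomal Ehhadh gave the largest difference of the list, at 1.00 and 1.28 against 0.192 and 0.248 RPKM (1.18 ± 0.13, limma adjusted p = 1.88e-05), a low level at which the added 0.5 RPKM understates the fold. In the TCA cycle 17 of 22 were higher and 1 lower (median 0.18). Cs, citrate synthase, stood at 340 and 346 against 260 and 271 RPKM (0.37 ± 0.05, limma adjusted p = 8.70e-05), and the 1 lower gene was Idh2, the mitochondrial NADP-dependent isocitrate dehydrogenase, at 90.8 and 88.3 against 113 and 115 RPKM (-0.35 ± 0.06, limma adjusted p = 0.000543). Without knockdown control replicate 2 or overexpression control replicate 1, the TCA list had 11 and 10 members called higher, and in the model of the 4 libraries alone it had 8.

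The nuclear-encoded subunits of the respiratory chain, whose partners are encoded by the mitochondrial genes above, were higher by small amounts: 22 of 51 were called higher and none lower (median 0.13). Uqcrb, of complex III, was at 60.6 and 63.1 against 48.1 and 46.1 RPKM (0.39 ± 0.07, limma adjusted p = 0.000663) and Ndufs1, of complex I, at 37.9 and 38.8 against 31.1 and 30.9 RPKM (0.30 ± 0.05, limma adjusted p = 0.000791). Over all genes 1737 were called higher. This was 677 in the model of the 4 libraries alone, 1488 in that of the Foxk2 set alone and 1238 without mitochondrial genes. The count of this list likewise depended on the libraries in the model and on the scaling. It was 6 without knockdown control replicate 2, 7 without overexpression control replicate 1, 7 in the model of the 4 libraries alone, 13 in that of the Foxk2 set alone and 14 without mitochondrial genes. Of the thermogenic and brown fat list, which marks heat-producing fat cells, 11 of 18 were tested. Of these, 7 were called higher and none lower (median 0.66). The groups lay apart upward for 8 of the 11 and downward for 3, and the lowest log2 difference was -0.44. Over all genes the groups lay apart for 60.2%. Cox8b, the brown and muscle form of a cytochrome c oxidase subunit, stood at 85.5 and 85.4 against 42.6 and 38.8 RPKM (1.06 ± 0.12, limma adjusted p = 2.23e-05). Cidea, a lipid droplet protein of brown fat, was at 4.08 and 3.61 against 1.54 and 0.937 RPKM (1.34 ± 0.14, limma adjusted p = 1.32e-05). In the model of the 4 libraries alone its call was lost (limma adjusted p = 0.0667).

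Other large rises included Apoc1, an apolipoprotein, at 186 and 181 against 77.0 and 67.8 RPKM (1.34 ± 0.06, limma adjusted p = 2.44e-08). Aldh1l1, an enzyme of folate metabolism, was at 13.2 and 13.7 against 5.25 and 5.54 RPKM (1.24 ± 0.09, limma adjusted p = 1.16e-06). Pck1, the enzyme that feeds glycerol synthesis in fat cells, was at 5.50 and 6.37 against 2.68 and 2.43 RPKM (1.07 ± 0.12, limma adjusted p = 2.28e-05). The rule for the largest rises took only genes whose groups did not overlap, so that separation is no result. Dbt, a subunit of the branched-chain keto acid dehydrogenase, was higher by 0.96. Acsm3, a medium-chain acyl-CoA synthetase, was higher by 1.26, but near-identical sequence of a neighbouring gene, Eri2, covers 35.8% of its transcript.

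The markers and regulators of the fat cell itself were mixed. Of 23 adipocyte markers, 9 were higher and 4 lower (median 0.08), and their summed level was 18055 to 18275 RPKM in the knockdown controls and 16188 to 16456 RPKM in the overexpression controls. Retn (resistin), a hormone of mouse fat cells, was at 289 and 312 against 176 and 189 RPKM (0.72 ± 0.06, limma adjusted p = 2.35e-06). Slc2a4, the insulin-responsive glucose transporter GLUT4, was at 93.0 and 93.8 against 58.8 and 63.8 RPKM (0.60 ± 0.07, limma adjusted p = 4.16e-05). The 4 that were lower were Lipe, Plin4, Car3 and Pparg. In the model of the 4 libraries alone, 4 of the 23 markers were called higher and 2 lower. Pparg, the master regulator of fat cells, was slightly lower (log2 difference -0.10), at 115 and 118 against 127 and 124 RPKM (limma adjusted p = 0.0359), a call lost when any of the 4 libraries was left out (limma adjusted p = 0.0544 to 0.211). Among 20 adipogenic transcription factors, Klf15 and Stat5a were higher and Cebpd, Klf2 and Pparg lower (median -0.05). Klf15, a regulator of gluconeogenic and lipogenic genes, was at 30.4 and 30.7 against 20.01 and 19.5 RPKM (0.62 ± 0.07, limma adjusted p = 3.68e-05), and Cebpd, an early factor of differentiation, at 11.1 and 10.2 against 15.4 and 15.8 RPKM (-0.54 ± 0.08, limma adjusted p = 0.000255). Without knockdown control replicate 2 or overexpression control replicate 1, 1 factor was called higher and 1 lower, and without overexpression control replicate 2, 2 higher and 1 lower.

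Glycolysis moved less. Of 17 enzymes, 5 were higher (Hk2, Pfkp, Tpi1, Ldha and Ldhb) and 2 lower (Hk1 and Eno3), with a median of 0.14. Hk2, the insulin-regulated hexokinase, was at 67.8 and 68.6 against 51.6 and 52.5 RPKM (0.39 ± 0.07, limma adjusted p = 0.000719). Without knockdown control replicate 2 or overexpression control replicate 1, 3 enzymes were called higher and none lower. Of 9 glucose and lactate transporters 2 were higher, Slc2a4 and Slc16a1. The Slc16a1 call was lost without knockdown control replicate 2 (limma adjusted p = 0.0981), without overexpression control replicate 1 or 2 (0.0543 and 0.0688) and in the model of the 10 control libraries (0.0530). In the hypoxia list 7 of 21 were higher and 3, Adm, Ndrg1 and P4ha2, lower (median 0.14). Egln3, a prolyl hydroxylase that marks HIF for destruction and is itself induced by HIF, was at 16.5 and 17.1 against 6.82 and 7.17 RPKM (1.21 ± 0.15, limma adjusted p = 4.29e-05), and Pdk1, which holds pyruvate back from the mitochondrion, was higher by 0.55. Leaving out each of the 4 libraries brought the 7 down to 3 (knockdown control replicate 2) or 4 (each of the others), and the 3 to 1 or 2.

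Hairpin RNAs are processed by the RNA interference machinery, and double-stranded RNA can trigger interferon signalling. Genes of both were read as lists. Of 43 interferon response genes, 2 were higher, Gbp2 among them, and 2 lower (Ifit2 and Parp14). These counts rested on single libraries: without overexpression control replicate 1, 1 was higher and 9 lower, without overexpression control replicate 2, 5 were higher and 1 lower, and without knockdown control replicate 2, 1 was higher and none lower. Without knockdown control replicate 1, 1 was higher and 2 lower. The median of the list was -0.17, which turned to 0.07 without overexpression control replicate 2. Ifit2, an interferon-induced RNA-binding protein, was at 1.66 and 1.15 against 2.70 and 2.34 RPKM (-0.68 ± 0.16, limma adjusted p = 0.00770), a call lost without knockdown control replicate 2 (limma adjusted p = 0.123). Of 13 genes of the RNA interference machinery, Ran was higher by 0.14 and Tnrc6c lower (log2 difference -0.25). Both calls were lost when any 1 of the 4 control libraries was left out. In the p53 list 3 of 23 were higher and 4 lower (median -0.06). Without knockdown control replicate 1 or 2 they were 2 and 2 or 1 and 1, and without overexpression control replicate 1 or 2 they were 2 and 2 or 1 and 2. In the cell cycle list 4 of 33 were higher (Cdk2, Ccne1, Ccne2 and Cdc45) and none lower (median -0.03). Of these 4, the call of Cdk2 alone held when each of the 4 libraries was left out. Over all genes 10.9% were called higher and 8.05% lower. Called higher were 4.65% of the interferon, 7.69% of the RNA interference, 13.0% of the p53 and 12.1% of the cell cycle list. Called lower were 4.65% of the interferon, 7.69% of the RNA interference and 17.4% of the p53 list. Cytosolic ribosomal proteins were lower in 13 of 52 cases with none higher (median -0.14). The count was 25 with median-ratio scaling and 28 without mitochondrial genes, 8 without knockdown control replicate 1, and 6 without replicate 2 of either kind of control. Several ribosomal protein genes share sequence with pseudogenes. Lysosomal genes were lower in 9 of 29 cases and 1, Atp6v1a, was higher (median -0.08).

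Further lists of metabolism, stress and secretion were mixed. Of 26 NRF2 and antioxidant genes, 9 were higher and 3 lower (median 0.08), or 4 and 2 in the model of the 4 libraries alone. Gpx1, a glutathione peroxidase, stood at 264 and 249 against 374 and 373 RPKM (-0.54 ± 0.05, limma adjusted p = 8.53e-06), whereas Prdx1, a peroxiredoxin, stood at 123 and 126 against 102 and 104 RPKM (0.27 ± 0.05, limma adjusted p = 0.00169). Both remove peroxides, and they moved in opposite directions. Of 31 ER stress and ATF4 targets, 6 were higher and 3 lower (median 0.04). Dnajb9, a chaperone of the endoplasmic reticulum, was at 35.6 and 35.7 against 22.0 and 22.7 RPKM (0.66 ± 0.05, limma adjusted p = 1.53e-06). The 3 that were lower became 1 without knockdown control replicate 1 or overexpression control replicate 2. Of 25 insulin, IGF and FoxO signalling genes, 4 were higher and 8 lower (median -0.07), and 1 to 3 were higher and 2 to 5 lower when 1 of the 4 libraries was left out. Irs2, an adaptor of the insulin receptor, was at 15.6 and 14.9 against 20.3 and 19.3 RPKM (-0.37 ± 0.07, limma adjusted p = 0.00281). Of 17 prostaglandin, retinoid and steroid enzymes, 3 were higher and 8 lower (median -0.21). The 3 became 1 without either knockdown control replicate or without overexpression control replicate 1. Ptgs1, the constitutive cyclooxygenase, was at 11.4 and 10.8 against 21.3 and 21.3 RPKM (-0.91 ± 0.07, limma adjusted p = 1.53e-06). Of 31 paracrine and endocrine factors, 5 were higher and 8 lower (median -0.09), or 3 and 6 without knockdown control replicate 2. Nrg4, a factor secreted by brown fat, was at 1.68 and 1.55 against 0.733 and 0.733 RPKM (0.78 ± 0.06, limma adjusted p = 1.49e-06).

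Markers of other cell types were sparse. Of 15 macrophage markers 6 passed the filter on low values and 2, Cd68 and Cd14, were lower. Their summed level was 5.46 to 5.70 RPKM in the knockdown controls and 7.68 to 8.73 RPKM in the overexpression controls, with Itgam, Ptprc and Tyrobp at 0. Cd68, a lysosomal protein that fibroblasts also make, stood at 1.79 and 1.72 against 2.95 and 3.42 RPKM. The call of Cd14 was lost when any 1 of the 4 libraries was left out. Of 13 skeletal muscle markers 3 passed and 1, Des (desmin), was higher, at 8.15 and 8.19 against 4.55 and 5.07 RPKM (0.71 ± 0.08, limma adjusted p = 1.88e-05), while Ckm, Myf5, Myod1 and Myog were at 0. Of 12 epithelial markers 1 passed, Krt18, which was higher by 0.76, with Epcam, Krt5 and Ocln at 0. Of 15 bone and cartilage markers 8 passed and 2, Spp1 and Sox9, were lower. Of 12 endothelial markers 1 passed and none was called, with Cldn5, Erg and Tie1 at 0. The part of such cells in the differences above was not tested.

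The Foxk1 arm offered the same 2 kinds of control in libraries that share no sample with those above. There, 7154 genes differed between knockdown and overexpression controls (44.8%), 4473 higher (28.0%) and 2681 lower (16.8%), and library ranges did not overlap for 49.4%. Of the 3024 genes called in the Foxk2 set, 1903 were also called in the Foxk1 set, which is 62.9% of the first list and 26.6% of the second. In 776 the direction was the same (513 higher and 263 lower in both sets), and in 1127 it was opposite. Without knockdown control replicate 2 of the Foxk2 set these counts were 402 and 624, and without knockdown control replicate 1, overexpression control replicate 1 or overexpression control replicate 2 the opposite count was 745, 747 or 733. Across all 15981 genes the correlation between the 2 sets of differences was -0.06 (Pearson, over genes, which are not independent replicates). A test of the difference itself, Foxk2 set minus Foxk1 set, called 5636 genes (35.3%). Among these were all 1127 genes called in opposite directions. The 2 sets also differ in depth and replicate number, so a difference between sets cannot be told apart from these.

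Cholesterol synthesis was higher in the knockdown controls of both sets. In the Foxk1 set 22 of 24 were higher and 1, Cyp51, lower (median 0.62). Hmgcs1 was higher there by 0.78 (limma adjusted p = 6.34e-09) and Insig1 by 0.61 (limma adjusted p = 1.95e-07). For Insig1 the test of the difference between sets did not pass (-0.09, limma adjusted p = 0.436). For the list as a whole, 16 of 24 genes differed between sets (median -0.23). Matrix genes went the other way: 24 of 28 collagen and fibrillar matrix genes were higher in the Foxk1 set and 3 (Col11a1, Lox and P4ha2) lower, and the difference between sets was called for 25 (median -0.98). Col1a2 was lower (log2 difference -0.58) in the Foxk2 set and higher by 0.87 in the Foxk1 set (difference -1.44, limma adjusted p = 4.58e-09). Fatty acid and triglyceride synthesis was split in the Foxk1 set, at 9 higher and 14 lower. Dgat2, higher by 0.77 in the Foxk2 set, was lower (log2 difference -1.19) there (difference 1.96, limma adjusted p = 1.38e-10). For the nuclear-encoded respiratory chain 43 of 51 were lower in the Foxk1 set with none higher, and the difference between sets was called for 43 (median 0.40). Fibroblast markers were split there, at 8 higher and 6 lower. Clec3b (tetranectin), a marker of that list, had a log2 difference of -0.75 in the Foxk2 set and -0.92 in the Foxk1 set, and the test of the difference between sets did not pass (0.17, limma adjusted p = 0.272).

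**Figure D4:**
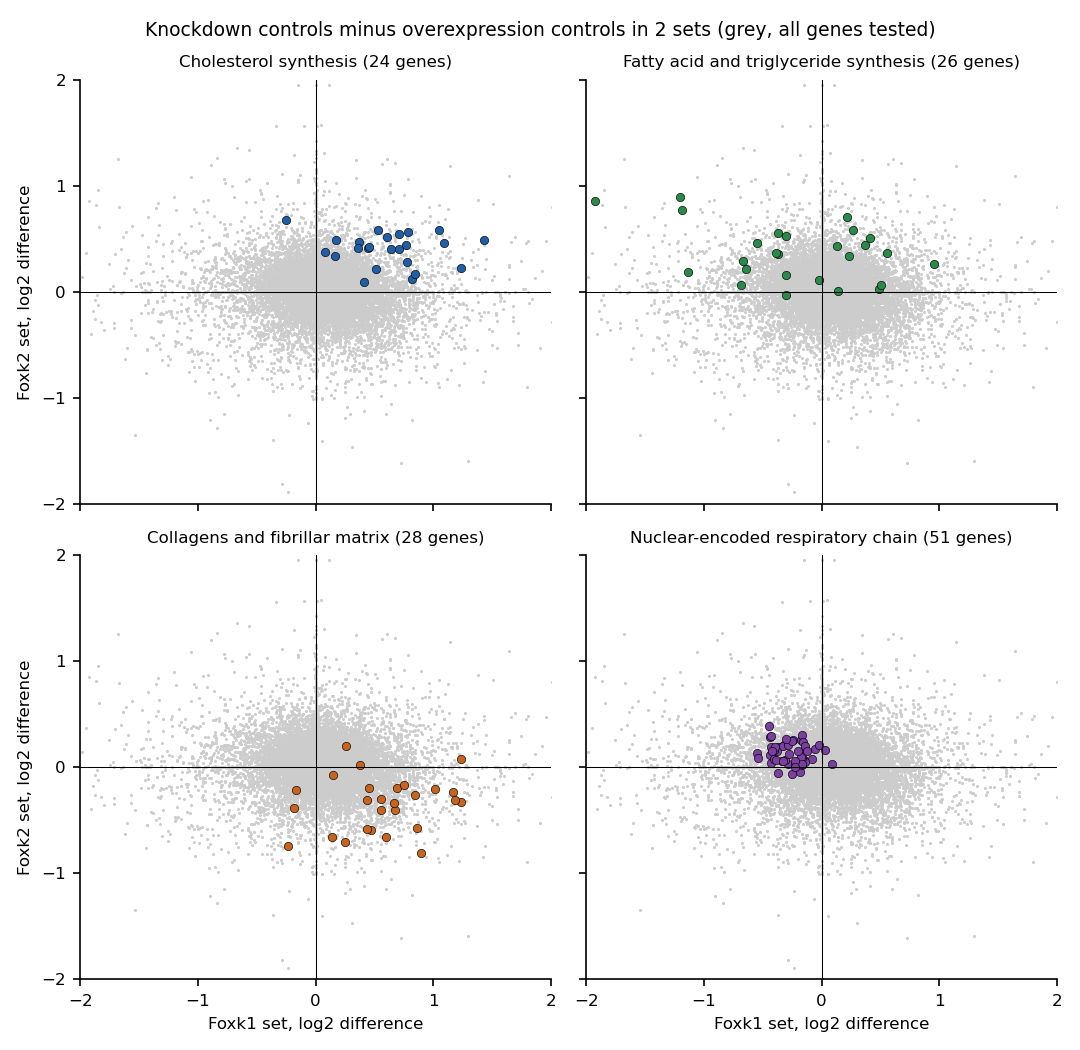
Log2 difference, knockdown controls minus overexpression controls, in the Foxk2 set (vertical axis) against the Foxk1 set (horizontal axis) for 4 gene lists (coloured) over all 15981 genes tested (grey; 60 genes lie outside the axes). Cholesterol synthesis genes lie mostly in the upper right, matrix genes mostly in the lower right and respiratory chain genes mostly in the upper left.

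Some genes moved the same way in both sets. Hcar1 and Hcar2, the receptors through which lactate and ketone bodies restrain lipolysis, were higher by 0.80 and 0.83 in the Foxk2 set and by 2.01 and 1.51 in the Foxk1 set. Sucnr1, the succinate receptor, was higher by 0.66 and 1.04, and Ltc4s, which makes leukotriene C4, by 0.87 and 1.38. Depp1, a FoxO target, was lower in both, with log2 differences of -0.93 and -2.59. Genes of opposite direction included Cidea (1.34 and -2.36), Slc25a34, a mitochondrial carrier (0.96 and -1.85), and Thrsp (0.90 and -1.21). The smallest p-values for a difference between sets, among genes not named otherwise, included Anxa8, an annexin (0.61 and -1.84), and Fmo1, a flavin monooxygenase (0.67 and -2.74).

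Because these 4 libraries are the baselines for Foxk2 itself, the levels of key genes in the manipulated libraries are given beside them. Each manipulation shares its control libraries with the comparison above, so the values are set side by side and no overlap is read from them. Over all genes, 45.0% were called for Foxk2 overexpression and 33.7% for Foxk2 knockdown, each against its own controls. Dcn was at 15.5 and 15.5 RPKM in Foxk2 overexpression and at 179 and 191 RPKM in Foxk2 knockdown, outside the range of both control pairs (41.9 to 70.1 RPKM). Dgat2 was at 863 and 872 RPKM in Foxk2 overexpression and 169 and 150 RPKM in Foxk2 knockdown, against 240 to 418 RPKM over the controls. Cidea was at 31.3 and 37.5 RPKM in Foxk2 overexpression and 0.219 and 0.224 RPKM in Foxk2 knockdown, against 0.937 to 4.08 RPKM over the controls. In these 3 genes the manipulated libraries lay outside all 4 controls.

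For other genes a manipulated pair lay near a control pair, its own or that of the opposite manipulation, or between both pairs. Thbs1 was at 55.5 and 55.9 RPKM in Foxk2 knockdown, above its own controls (20.8 and 19.7; 1.44 ± 0.10, limma adjusted p = 2.08e-08) but below the overexpression controls (62.5 and 63.7). Ccdc80 was at 601 and 625 RPKM in Foxk2 knockdown, higher by 1.54 than its own controls at 212 and 208 RPKM, and close to the overexpression controls at 589 and 575 RPKM. Acta2 was at 18.3 and 19.6 RPKM in Foxk2 overexpression, beside 17.8 and 19.0 RPKM in its own controls, while the knockdown controls lay at 8.36 and 8.01 RPKM. Hmgcs1 was at 85.1 and 82.7 RPKM in Foxk2 knockdown, lower than its own controls (log2 difference -0.47, limma adjusted p = 2.31e-05) yet above the overexpression controls at 77.5 and 79.5 RPKM. Slc2a4 was at 91.6 and 94.2 RPKM in Foxk2 overexpression, higher by 0.60 than its own controls (limma adjusted p = 5.67e-06) and beside the knockdown controls at 93.0 and 93.8 RPKM. mt-Atp6 was at 5220 and 10900 RPKM in Foxk2 knockdown, called 4.80 higher than its own controls (limma adjusted p = 0.000412), whereas the overexpression controls lay at 10637 and 9950 RPKM.

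**Figure D5:**
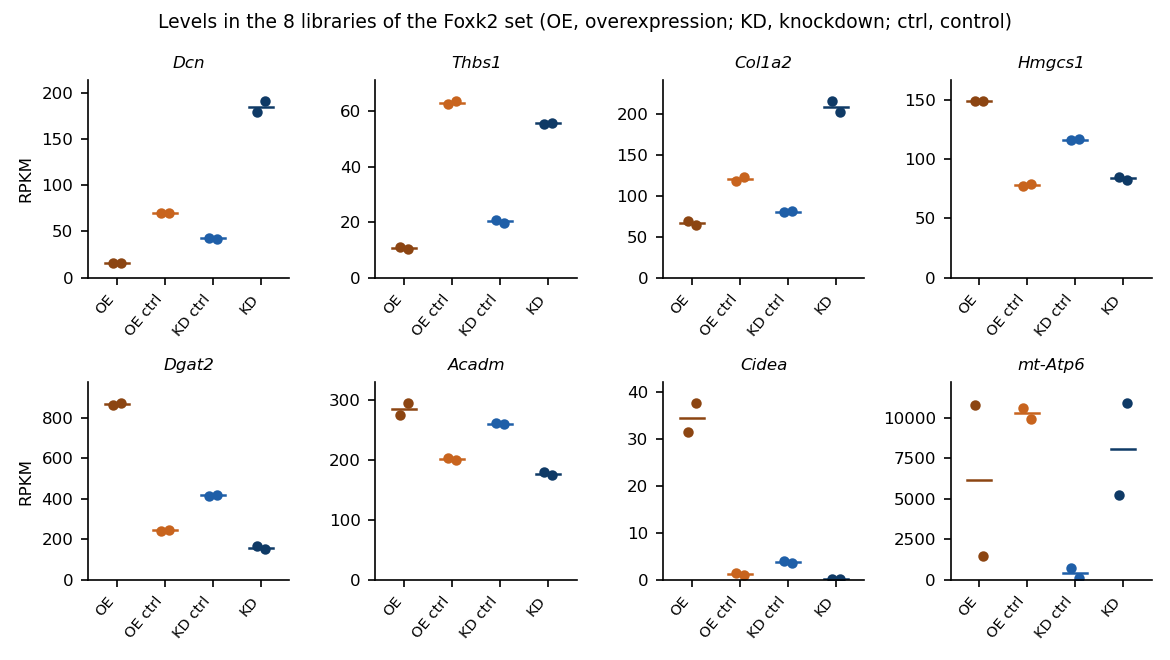
RPKM (linear scale from 0) of 8 genes in the 2 libraries each of Foxk2 overexpression, its controls, the knockdown controls and Foxk2 knockdown; points are libraries and bars means. Thbs1 in Foxk2 knockdown (55.5 and 55.9) lies above its own controls and below the overexpression controls, and mt-Atp6 differs between replicates of 3 groups.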

How the data were processed

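RNA was sequenced from 20 libraries of 3T3-L1 adipocytes, of which 4 are compared here. Per the submitters' processing notes, HISAT2 2.1.0, Picard 1.141, featureCounts of Subread 1.5.1, edgeR and the mm10 genome were used. The authors deposited 1 table of RPKM values. The treatment of multiply aligned reads, the strand of counting and the annotation release are not given in the sources used here, so reads of overlapping or antisense genes cannot be told apart. Values were analysed as log2(RPKM + 0.5), so differences of low genes are understated. Genes with at least 0.5 RPKM in at least 2 libraries were kept (15981 of 48440). Group means were fitted to all 20 libraries with limma 3.58.1 in R 4.3.3, with an intensity trend in the variance. P-values were adjusted by Benjamini and Hochberg over all genes tested, and adjusted p under 0.05 was called. The SE given with a difference is the moderated standard error.

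Whole reads were recovered from RPKM and merged exon length (GENCODE M21). Within a tolerance of 0.1, 100% of values came out whole over the 40606 genes whose ID and version matched. For 5812 others the length was taken as the shortest that gives whole reads, so their wholeness is no check. Voom on these reads, an alternative, called 4083 genes. Other scalings, filters, pseudocounts, sample sets and omitted replicates were tried as alternatives. Near-identical copies were found with BLAST+ 2.17.0 among transcripts of other genes. Fits were tested on simulated data. The members and gene lists were chosen with earlier results of these data known. Genes were named by a rule, which took Foxk1, Foxk2 and the 12 largest rises and falls. These rises and falls came from called genes whose groups did not overlap, with a mean of at least 2 RPKM in the higher group. The rule also took up to 4 called members of smallest p in each list and 2 of the other direction. The leading genes shared by or differing between the 2 sets were named as well. Named beyond the rule, after their values were seen, were the uncalled members of a list, all members of small counts, the genes flanking the mitochondrial run, Adipoq, Fabp4, Gm10925, Eri2, Col11a1 and Cyp51. Some genes are not reported here.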

Additional observations from a re-analysis of the deposited data

Results flagged for a closer look

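The difference between knockdown and overexpression controls was tested between the Foxk2 set and the Foxk1 set, and 5636 genes differed. Values below are the log2 difference of the Foxk2 set minus that of the Foxk1 set, each with limma adjusted p under 0.05. They are given for the genes named in the report, with no explanation.

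In the mitochondrial genome the values were -5.35 for mt-Atp6, -4.93 for mt-Atp8, -5.45 for mt-Co2, -5.63 for mt-Nd3, -5.55 for mt-Nd4l and -3.34 for mt-Tr. Outside the run mt-Co1 gave -0.90, mt-Nd1 -0.43, mt-Nd4 -0.83 and mt-Nd6 0.36. Matrix and fibroblast genes were negative: Ccdc80 with -1.77, Col1a2 -1.44, Dcn -1.12, Lox -0.51, Postn -0.96, Prrx1 -1.02, Sparc -0.96, Spp1 -0.74, Thbs1 -2.34 and Vim -0.74. So were the proteases and inhibitors Adamts1 with -1.09, Adamts5 -0.95, Mmp2 -1.10 and Timp2 -0.41. Contractile genes gave -1.53 for Acta2, -1.06 for Cald1, -0.87 for Flna and -1.54 for Flnc. For signalling genes the values were -0.25 for Ccnd1, -0.61 for Dusp1, -1.01 for Fzd1, -0.45 for Jun, -0.26 for Lrp5, -0.35 for Ltbp1 and -0.99 for Sfrp2. The chemokines Ccl2, Cx3cl1 and Cxcl12 gave -1.11, -1.0 and -0.76.

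In lipid synthesis Dgat2 gave 1.96, Elovl5 0.83 and Thrsp 2.1. Among cholesterol genes Acat2 gave 0.29, Cyp51 0.93, Hmgcs1 -0.22, Mvd -0.68, Mvk -0.49 and Srebf2 -0.32. For oxidation and respiration the values were 0.95 for Acadm, 0.51 for Cs, 0.55 for Echs1, -0.32 for Idh2, 0.46 for Ndufs1 and 0.83 for Uqcrb. Thermogenic and carrier genes were positive, with 3.70 for Cidea, 1.84 for Cox8b and 2.81 for Slc25a34. Droplet and lipolysis genes gave 0.70 for Pde3b, -0.38 for Plin3, -0.56 for Plin4 and 0.30 for Pnpla3. Glucose metabolism gave 0.65 for Egln3, -0.80 for Hk1, 1.08 for Hk2, 0.73 for Ldha, -0.52 for Ldhb, 0.84 for Pfkp, 0.95 for Slc16a1 and 0.99 for Slc2a4.

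Fat cell genes and regulators gave -0.41 for Adipoq, -4.51 for Car3, 0.79 for Cebpd, 0.31 for Fabp4, 0.94 for Klf15, -0.31 for Foxk1, -0.71 for Irs2, 0.73 for Pck1, -0.12 for Pparg and 0.72 for Retn. Receptors and enzymes gave 0.90 for Aldh1l1, 0.54 for Dbt, 3.41 for Fmo1, -1.21 for Hcar1, -0.68 for Hcar2, -0.51 for Ltc4s, -1.75 for Maoa, -0.63 for Ptgs1 and -0.38 for Sucnr1. Secreted and other proteins gave 2.45 for Anxa8, 1.91 for Apoc1, 1.66 for Depp1, 0.72 for Nrg4, -1.70 for Orm2 and 1.68 for Krt18. Stress and antioxidant genes gave 0.21 for Dnajb9, 0.89 for Gpx1 and 0.56 for Prdx1. Cell cycle genes gave -0.49 for Ccne1, 0.44 for Ccne2, 0.42 for Cdc45 and 0.55 for Cdk2. Interferon and RNA interference genes gave 1.01 for Gbp2, -0.63 for Ifit2 and -0.37 for Tnrc6c. Acsm3 and Eri2, which share sequence, gave 2.94 and 0.88.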

How the results depend on the processing

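The count of 3024 genes fell to 1359 in the model of the 4 control libraries alone, and ranged from 1524 (without knockdown control replicate 2 of the Foxk2 set) to 3095 over the omission of each control replicate. The genes called in the same direction in both sets numbered 271 and those in opposite directions 443 in models of the compared libraries alone; over omitted replicates they ranged from 402 to 782 and from 624 to 1157. In 11 lists, at least as many tested members were called one way as all others together. The epithelial markers, with 1 tested gene, are among them. Of the 11 lists, 3 remained so in the model of the 4 control libraries alone. Other alternatives left these counts within 1.5 times. No called gene among the 137 examined one by one changed direction. Among those that were not called, Gm10925 ranged from -0.26 to 0.80 and mt-Nd1 from -0.12 to 0.016 over omitted replicates, and mt-Nd1 turned to 0.98 under quantile normalization. The replicate numbers are shared labels: same-numbered libraries deviated with a correlation of -0.03 in the Foxk2 set and -0.05, -0.004 and -0.11 in the Foxk1 set. With the replicate block, 2742 genes were called in the Foxk2 set (1572 higher and 1170 lower), 6928 in the Foxk1 set and 5352 for the difference between sets. Of the alternatives planned, each was run. With 2 libraries a group, an omission leaves 1, which is assumed to vary like the other groups. Depth limits the low genes, such as Ehhadh at 0.192 and 0.248 RPKM in the overexpression controls.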
